A study of Mus musculus with 2 samples.

Results

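The genes described here encode enzymes that add methyl groups to lysines of histones or remove them. Members were chosen by symbol, as protein-coding genes on chromosomes 1 to 19 in GENCODE mouse release M21 whose names start with Kmt, Kdm, Setd, Nsd, Prdm or Ezh followed by a digit. The rule found 50 of 20807 such coding genes, of which 8 were Kmt, 15 Kdm, 8 Setd, 3 Nsd, 14 Prdm and 2 Ezh genes. No measured value entered the rule, although it was chosen with earlier results of these data known. It takes names only, and it therefore includes Setd3, whose protein is known for methylating a histidine of actin. It also includes Prdm genes known mainly as DNA-binding transcription factors.

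The data were 2 lists of N6-methyladenosine (m6A) sites, 1 from the cerebellum and 1 from the cerebrum. Both were made from female F1r poly(A)+ RNA at postnatal day 0 (P0). The methods speak of 1 mouse, while the labels do not say whether both tissues came from the same animal. Here F1r is the cross of a C57BL/6J (C57) mother with a PWK/PhJ (PWK) father, so that every cell of both samples carried 1 set of chromosomes of each strain. Both libraries had been treated by GLORI, a chemistry in which glyoxal and nitrite turn an unmodified adenosine into a base read as G while m6A is still read as A. Each list gave positions only, so neither a methylation level nor a read depth was known for any site.

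Methylation of histone lysines marks the state of chromatin. Methylated lysine 4 of histone H3 (H3K4) is found at promoters and enhancers of active genes, methylated H3K36 along transcribed gene bodies, and methylated H3K27 and H3K9 at silenced genes, and separate enzymes write and erase each mark. In the developing brain these enzymes are known for setting the timing of neurogenesis and of neuronal maturation, and disabling variants in several of their genes cause neurodevelopmental disorders. The m6A itself is a mark of RNA, not of histones, and is placed by the METTL3/METTL14 complex mostly within the 5-base motif DRACH, in which D means any base but C, R means a purine, H means any base but G, and the A before the C carries the methyl group.

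To show what was called, 10 sites are printed. In each family the member with the most DRACH sites found in both tissues was taken (no Ezh gene had one), and its shared site nearest to the stop codon is given first, then the shared site farthest upstream within its longest internal exon that held one. All sequences are GRCm38 (mm10), read 5′ to 3′ on the strand of the gene with 10 nt on either side of the called adenosine. Capitals mark the DRACH 5-mer, whose middle A was called. For Kmt2a (minus strand) the positions are chr9:44807896-44807916 in the last exon and chr9:44822204-44822224 in exon 27 of 36. For Setd2 (plus strand) they are chr9:110594684-110594704 in exon 15 and chr9:110547240-110547260 in exon 3 of 21, since the shared site of Setd2 nearest to its stop codon lay at -798 nt from it. For Nsd1 (plus strand) they are chr13:55313742-55313762 in the 3′ UTR and chr13:55245620-55245640 in exon 5 of 23. For Prdm2 (minus strand) both chr4:143132754-143132774 and chr4:143135366-143135386 are in exon 8 of 10. For Kdm5b (plus strand) they are chr1:134631367-134631387 in the 3′ UTR and chr1:134624856-134624876 in exon 23 of 27.
Kmt2a, at the stop codon: aagttcctGAACTaaagctgt
Kmt2a, exon 27: ctcacagaGGACAgttggagg
Setd2, exon 15: attatcaaGGACAgacatgtt
Setd2, exon 3: tcatcaaaGGACCagtgttca
Nsd1, 3′ UTR: acataactAGACAagctgtcc
Nsd1, exon 5: gtcaagttGGACAgtgaggaa
Prdm2, exon 8, site nearest to the stop codon: tatcccacAGACTttcactac
Prdm2, exon 8, site farthest upstream: cttgggcaAGACTgtttgata
Kdm5b, 3′ UTR: gaaagtaaAAACAaaacacac
Kdm5b, exon 23: ttcagtgtGAACTctgcaggg
The Kmt2a site nearest to the stop codon sat 4 nt before the last base of that codon, so that the last base of its 5-mer was the first of the stop codon. The Setd2 site in exon 3 was 41 nt from the nearest exon junction, while the Prdm2 sites were 1054 and 723 nt from one.

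Of 50 member genes, 31 carried at least 1 DRACH site in the cerebellum and 41 in the cerebrum, against 35.7% and 46.0% of all coding genes. Over all 5-mers the members held 716 cerebellum and 1457 cerebrum sites, out of 79355 and 188295 sites in all, and 546 positions were in both. In the cerebellum 548 of the 716 were DRACH (76.5%, 95% Wilson interval 73.3 to 79.5), and in the cerebrum 892 of 1457 (61.2%, 58.7 to 63.7). The same shares over coding genes were 63.2% and 47.5%. These intervals cover counting error over sites only, and sites of 1 transcript are not independent. With 1 library per tissue there was no replicate check and no test between the tissues. A gene with fewer sites in a tissue may be less methylated, expressed in fewer cells or at less RNA per cell, or more thinly read, which cannot be told apart in these lists.

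The names of both deposited lists, the cerebrum one included, carry the same abbreviation, "bel". The paper's sample names use "bel" for the cerebellum and "bru" for the cerebrum, so the name of the cerebrum list goes against its label. Tissues were taken from the labels. These were checked by genes known for regional expression. Each of 5 forebrain genes (Emx1, Emx2, Neurod6, Tbr1 and Dlx2) had more sites in the cerebrum list, with 3 to 25 there and 0 or 1 in the cerebellum list. The 6 hindbrain genes held 47 cerebellum and 23 cerebrum sites, and 22 of these 23 lay in Zic1. Zic1 had fewer in the cerebellum, with 19, and Pax2 had no site in either list. Each of the other hindbrain genes had more sites in the cerebellum list.

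Sites were concentrated in a minority of the enzymes. At least 20 DRACH sites, counting both tissues together, were found in 16 of the 50 genes, against 6.05% of all coding genes. The 16 were Kmt2a, Kmt2c, Kmt2d, Kmt2e, Kmt5b, Setd1a, Setd1b, Setd2, Setd5, Nsd1, Nsd2, Nsd3, Prdm2, Kdm2a, Kdm3b and Kdm5b. The median was 13 DRACH sites over the 41 members that had any and 5 over the 9877 coding genes that had any. A count does not allow for how many DRACH adenosines a transcript offers, so the share of them that were called was used as well. It was computed on the longest coding isoform of each gene, and over the 50 members 515 of 6391 DRACH adenosines were called in the cerebellum (8.06%) and 826 in the cerebrum (12.9%). All coding genes had 3.10% and 5.29%, and those with a DRACH site had 5.10% and 8.71%, against 9.01% and 14.4% in the members with one. By gene, the members had a median called share of 4.53% (cerebellum) and 8.26% (cerebrum), with upper quartiles of 9.0% and 15.8%. The median over the 18048 coding genes with at least 20 DRACH adenosines was 0 in each tissue. Among genes with a DRACH site it was 5.0% and 10.7% in members and 2.74% and 6.06% in coding genes.

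**Figure D1:**
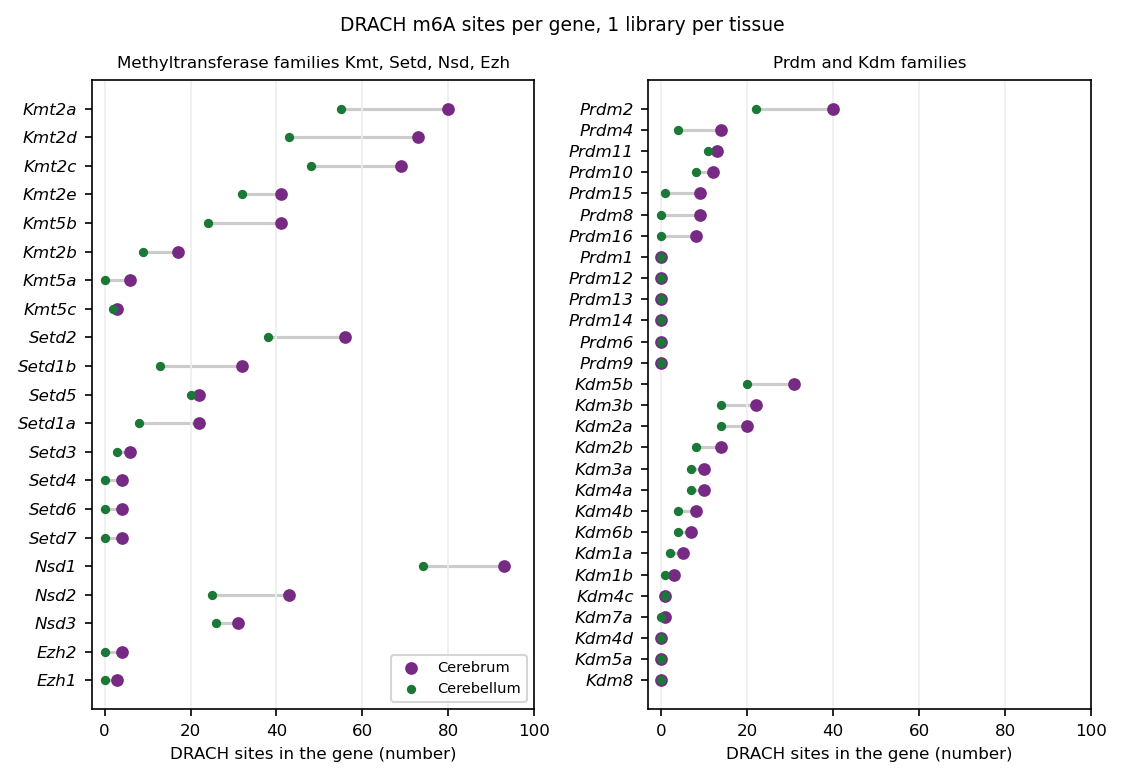
Number of DRACH m6A sites in each of 49 of the 50 genes, in the cerebellum (green) and the cerebrum (purple), 1 library per tissue, grouped by family; a grey line joins the 2 values of a gene. Nsd1 has the most sites (74 and 93), the Ezh genes have 0 in the cerebellum, and of the genes shown with at least 5 sites none has more in the cerebellum.

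The methyltransferases of H3K4 formed the group with the most sites. The 8 members known for this activity held 176 cerebellum and 297 cerebrum DRACH sites, with a median of 28.0 per gene over both tissues together. Kmt2a, also known as MLL1 and needed for Hox gene expression, had 55 cerebellum and 80 cerebrum DRACH sites with 50 shared. Kmt2c, which places monomethyl marks at enhancers, had 48 and 69 with 39 shared, and its close relative Kmt2d had 43 and 73 with 40 shared. In each of the 3 the cerebrum value was the higher, and most cerebellum sites were found again there.

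Kmt2b, the nearest relative of Kmt2a, had fewer, with 9 and 17. Setd1a and Setd1b, which trimethylate H3K4 at promoters, had 8 and 22, and 13 and 32. Of the 25 sites of Setd1a of any 5-mer, 13 also lay inside Gm49388, a gene model on the same strand, and cannot be assigned to either from the positions. Setd7 had 0 and 4. Prdm9, which marks recombination hotspots in meiosis, held no site. Kmt2e, a SET domain protein that shares the Kmt2 name and was kept out of the H3K4 list, had 32 and 41 with 30 shared. Kmt2b, Kmt2e, Setd1a and Setd7 are named here after their values were seen.

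The 4 methyltransferases of H3K36 held 163 and 223 DRACH sites, with a median of 51.5 per gene. Nsd1, which adds the first methyl groups to H3K36 and whose human counterpart is the Sotos syndrome gene, had the most DRACH sites of any member, with 74 in the cerebellum, 93 in the cerebrum and 68 in both. Of its 280 DRACH adenosines 26.4% were called in the cerebellum and 31.8% in the cerebrum. Setd2, which makes trimethylated H3K36 on genes being transcribed, had 38 and 56 DRACH sites with 37 shared, so that all but 1 of its cerebellum sites were called in the cerebrum. Its called shares were 18% and 27.3%. Nsd2 had 25 and 43 with 22 shared, and Nsd3 had 26 and 31 with 19 shared. Per available motif on the longest coding isoform Nsd3 was the lowest of the 4, at 5.91% and 8.18%. That isoform held only 13 and 18 of the 26 and 31 sites of Nsd3, and that of Nsd2 18 and 28 of its 25 and 43.

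The H4K20 methyltransferases differed widely from each other. Kmt5b had 24 and 41 DRACH sites with 22 shared, and its called share over both tissues together, 35.5%, was the highest of all members with a site and at least 20 DRACH adenosines. Nsd1 (33.9%) and Setd2 (27.3%) came next. Kmt5c, which acts on the same lysine, had 2 and 3 sites. Kmt5a, which adds the first methyl group, had 0 and 6. The 2 H3K27 methyltransferases, the catalytic subunits of Polycomb repressive complex 2 (PRC2), had hardly any: Ezh1 had 0 and 3 DRACH sites, and Ezh2 had 0 and 4. Ezh2 carried 15 sites of any 5-mer in the cerebrum and 1 in the cerebellum, and 2 of its 4 DRACH sites were intronic. The called share of the Ezh family was 0 of 152 DRACH adenosines in the cerebellum, which allows up to 2.46% (upper bound of the interval), and 3.29% (1.41 to 7.47) in the cerebrum.

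The Prdm genes encode zinc finger proteins with a SET-like domain, and few of them have proven activity on histones. They held 46 and 106 DRACH sites, of which Prdm2 alone had 22 and 40. Prdm11 had 11 and 13, and Prdm4 had 4 and 14. Of the 14 Prdm genes 5 had no site of any kind, namely Prdm1, Prdm6, Prdm9, Prdm13 and Prdm14. Their expression was not measured here, and the cause of these zeros was not tested. Prdm12, known for sensory neurons, had 2 cerebrum sites outside DRACH and a called share of 0.

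The demethylases had lower called shares than the Kmt, Nsd and Setd genes. The 15 Kdm genes held 82 cerebellum and 132 cerebrum DRACH sites, with called shares of 4.33% (3.47 to 5.40) and 7.11% (5.99 to 8.41). The 8 Kmt genes had 13.3% (11.7 to 15.0) and 20.2% (18.3 to 22.3), the Nsd genes 15.4% and 19.8%, the Setd genes 9.22% and 16.5%, and the Prdm genes 3.17% and 7.08%. These shares pool all adenosines of a family, so genes with many of them weigh more. By gene, the median called shares were 12.6% and 19.4% in Kmt, 9.84% and 15.3% in Nsd and 6.69% and 13.9% in Setd. They were 4.04% and 7.07% in Kdm and 0 and 2.35% in Prdm. Genes within a family spread widely, and the families were not tested against each other. Kdm5b, which removes methyl groups from H3K4, had 20 and 31 DRACH sites with 19 shared. Its relative Kdm5a had none, although its isoform offered 229 DRACH adenosines, and its 5 sites were all intronic, outside DRACH and in the cerebrum. Kdm2a, which acts on H3K36, had 14 and 20 with 13 shared, and Kdm3b, which acts on H3K9, had 14 and 22 with 14 shared. Neither Kdm4d, known from the testis, nor Kdm8 held a site.

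The coding sequence held most of the members' sites. Among exonic DRACH sites of coding isoforms, 394 of 541 in the cerebellum (72.8%, 68.9 to 76.4) and 611 of 862 in the cerebrum (70.9%, 67.8 to 73.8) lay in the coding sequence. The same shares over all coding genes were 39.8% and 41.2%. The 3′ UTR held 26.8% (23.2 to 30.7) and 28.8% (25.8 to 31.9) of member sites, against 57.4% and 55.9% over all coding genes. Within 200 nt of the stop codon lay 14.8% and 13.8% of member sites, against 22.0% and 22.1%. Long internal exons, taken as those of 400 nt or more, accounted for 292 cerebellum (54.0%, 49.8 to 58.1) and 445 cerebrum sites (51.6%, 48.3 to 54.9). Over all coding genes they held 18.9% and 18%.

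Members also had more sequence of that kind. Long internal exons occurred in 26 of the 50 members and in 3421 of the 19711 coding genes with a usable isoform, and they held 21.2% of the members' DRACH adenosines against 6.44% over all coding genes. The called share within a class takes this into account. In long internal exons of members 21.5% of DRACH adenosines (19.4 to 23.8) were called in the cerebellum and 32.8% (30.4 to 35.4) in the cerebrum. In shorter internal exons, which offered 2298 DRACH adenosines against 1355, only 0.827% (0.530 to 1.29) and 1.96% (1.47 to 2.61) were called. The last exon lay between them at 7.73% and 12.8%. All coding genes showed the same order, with 9.19% and 14.9% in long internal exons, 0.307% and 0.704% in shorter ones and 4.20% and 7.14% in last exons. Restricting both sets to genes with a DRACH site, the long internal exons had 22.6% and 34.4% in members and 13.2% and 21.5% in coding genes. These are unequal sets of genes in expression and depth, neither of which the lists give, and the part of these in the difference was not tested.

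**Figure D2:**
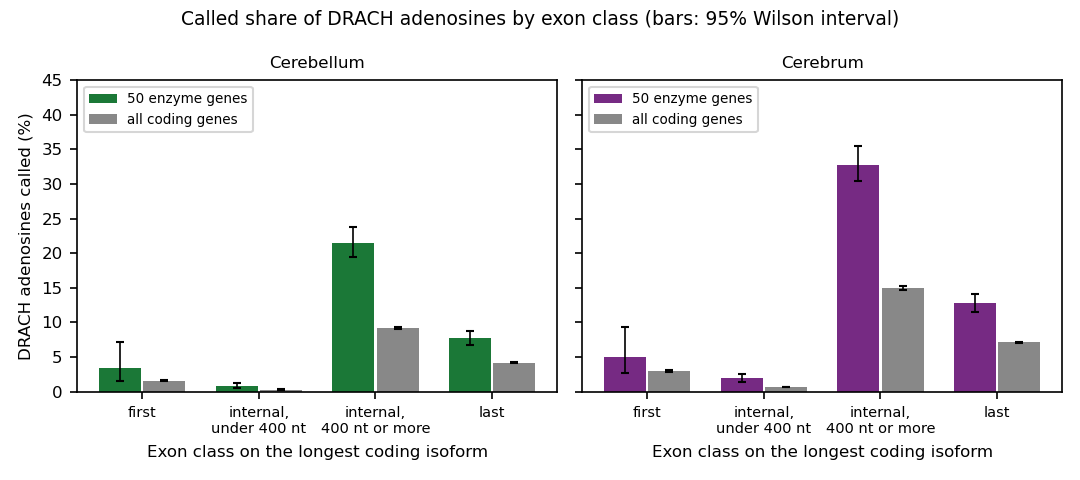
Share of DRACH adenosines that were called (%), by class of exon on the longest coding isoform, in the cerebellum (left) and the cerebrum (right). Coloured bars are the 50 enzyme genes, grey bars all coding genes, and error bars 95% Wilson intervals. Long internal exons reach 21.5% and 32.8% in the enzyme genes, and shorter internal exons stay at 0.827% and 1.96%.

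First exons of members had called shares of 3.37% and 5.06%, but 5 of their 6 cerebellum calls and 7 of their 9 cerebrum calls lay in exon 1 of the 9-exon Nsd2 isoform, a mostly coding exon of 626 nt, which the 23-exon isoform carries as an internal exon. With the APPRIS principal isoform of each gene the first-exon shares were 0.645% and 1.29%.

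Distance to the nearest junction ordered the calls within internal exons. Under 50 nt from a junction 0.427% of the members' 1638 DRACH adenosines were called in the cerebellum and 1.22% in the cerebrum. From 50 to 99 nt the shares were 2.09% and 4.45%, in the next 50 nt 10.1% and 21.7%, and from 150 nt to under 200 nt 24.3% and 33.6%. Beyond that they levelled off, with 24.6% and 40.3% from 200 nt to under 400 nt and 26% and 36.6% at 400 nt or more. Exon length and junction distance go together, and both could be varied only in part. Within 100 nt of a junction the members' long internal exons had 6.48% (3.90 to 10.6) and 12% (8.35 to 17.1) called, and their shorter ones 0.412% (0.217 to 0.781) and 1.28% (0.888 to 1.85). At 100 nt or more the shorter internal exons, with 112 DRACH adenosines, had 8.93% (4.92 to 15.7) and 15.2% (9.70 to 23.0), and the long ones 24.4% (22.0 to 27) and 36.8% (34.0 to 39.6). All coding genes had lower values, which went up to 10.9% and 18.3% from 200 nt to under 400 nt and were 11.3% and 17.5% at 400 nt or more. Among genes with a DRACH site, members had 25.5% and 41.8% from 200 nt to under 400 nt, and coding genes 15.9% and 26.8%. At 400 nt or more these were 26.2% and 36.9% in members and 15.1% and 23.3% in coding genes.

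**Figure D3:**
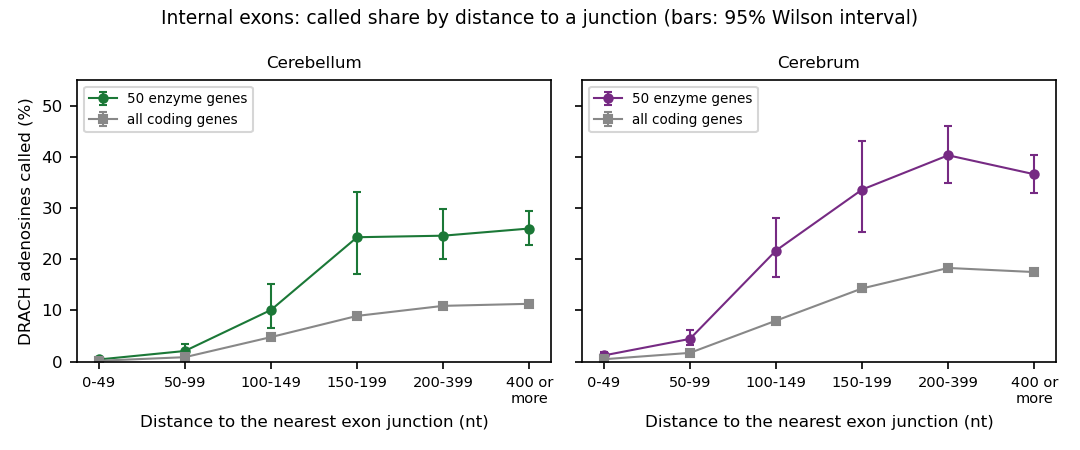
Share of DRACH adenosines in internal exons that were called (%), by distance to the nearest exon junction in nt, for the 50 enzyme genes (coloured circles) and all coding genes (grey squares), with 95% Wilson intervals. The enzyme genes go from 0.427% and 1.22% under 50 nt to 26% and 36.6% at 400 nt or more.

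The members' longest internal exons were all coding and carried a large part of their sites. Exon 8 of Prdm2 (chr4:143131710-143136099, 4390 nt) held 85 DRACH adenosines, of which 21 were called in the cerebellum, 33 in the cerebrum and 19 in both. Exon 3 of Setd2 (chr9:110547209-110551494, 4286 nt) held 104, with 26 and 39 called, and every one of the 26 was shared. Exon 27 of Kmt2a (chr9:44818283-44822519, 4237 nt) held 114, with 30 and 38 called and 26 shared. Exon 5 of Nsd1 (chr13:55245518-55248077, 2560 nt) held 73, with 30 and 35 called and 28 shared, which made 41.1% and 47.9% of its motifs. Kmt2d spread its sites over 6 internal exons of 1000 nt or more, and its highest called shares were 55.6% and 61.1%, both in exon 11. Kmt2c had 4 such exons, with its highest shares, 33.3% and 37.8%, in exon 43.

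Of the 24 member exons of this size 1 had no call, exon 6 of Prdm1, a gene without any site. Exon 9 of Prdm16 had 0 of 30 called in the cerebellum and 2 in the cerebrum. Among all 49 long internal exons of members 43 had a call in either tissue, against 35 of the 724 shorter internal exons that offered a DRACH adenosine. The 49 offered 1355 DRACH adenosines and the 724 offered 2298. A shorter exon thus had far fewer that could be called, which this count of exons does not allow for.

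The density of calls can be read from the sequence itself. The 4 windows below are the 100 nt with the most shared DRACH sites in the longest internal exon of the 4 genes, and were chosen by those counts. Capitals mark the DRACH 5-mers called in both tissues, and the lower-case letters hold the DRACH motifs that were not. For Nsd1 the window is chr13:55245923-55246022 (plus strand) and holds 5 DRACH adenosines with 4 shared. For Prdm2 it is chr4:143134544-143134643 (minus strand), with 4 DRACH adenosines all called in the cerebellum and 3 in the cerebrum too. For Setd2 it is chr9:110549364-110549463 (plus strand), with 3 of 5 shared. For Kmt2a it is chr9:44820477-44820576 (minus strand), with 3 of 6 shared.
Nsd1, exon 5: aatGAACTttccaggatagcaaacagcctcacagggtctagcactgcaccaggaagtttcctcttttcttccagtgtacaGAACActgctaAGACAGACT
Prdm2, exon 8: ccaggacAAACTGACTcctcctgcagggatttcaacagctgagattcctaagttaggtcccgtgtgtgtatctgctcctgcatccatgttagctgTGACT
Setd2, exon 3: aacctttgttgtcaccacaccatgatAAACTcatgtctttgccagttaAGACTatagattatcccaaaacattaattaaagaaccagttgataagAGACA
Kmt2a, exon 27: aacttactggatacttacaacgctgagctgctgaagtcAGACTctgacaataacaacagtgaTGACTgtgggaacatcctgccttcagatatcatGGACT
In Nsd1 and Prdm2 a pair of shared sites lay 4 nt apart, so that their 5-mers overlap by 1 base. Over the whole exons the median gap between neighbouring shared sites was 67 nt in Nsd1, 77.0 nt in Prdm2, 118 nt in Setd2 and 121 nt in Kmt2a. The median gap between neighbouring DRACH adenosines, called or not, was 25.5 to 31 nt in these exons.

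**Figure D4:**
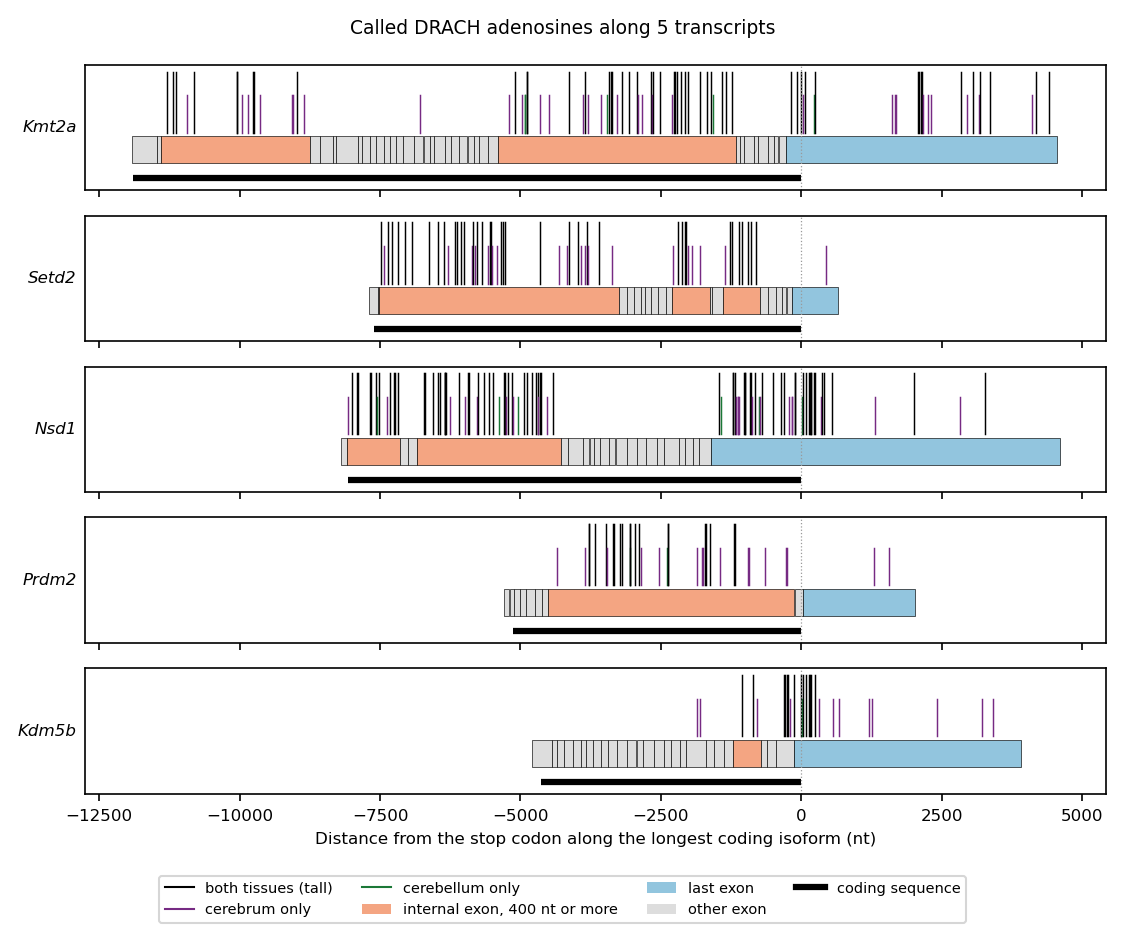
Called DRACH adenosines along the longest coding isoform of 5 genes, placed by distance from the stop codon in nt. Tall black ticks are sites of both tissues, short purple ticks cerebrum only, short green ticks cerebellum only. Boxes are exons (orange for internal exons of 400 nt or more, blue for the last exon, grey for others), and the black bar is the coding sequence. Ticks gather over orange boxes and around the stop codon, and runs of short exons are nearly empty.

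Other members had no internal exon of 1000 nt or more and carried most of their sites, or a large part, in the last exon. Kmt5b had none of its 43 DRACH sites in a long internal exon and 40 in its last exon of 4188 nt, 21 of them in the coding part, and 23 and 38 of that exon's 82 DRACH adenosines were called (28.0% and 46.3%). In Kmt2e 25 and 27 of the 54 in the last exon were called (46.3% and 50.0%). In Setd5, a SET domain gene mutated in intellectual disability, it was 15 in each tissue of 53, with 14 shared, and Setd5 had 20 and 22 DRACH sites in all. Kdm5b had 9 and 16 of 82 in its last exon, and Prdm11 had 9 and 10 of 177 in a last exon of 10711 nt, mostly 3′ UTR. Over the members, the coding part of last exons had a called share of 18.2% and 26.4%, while the 3′ UTR as a whole had 5.80% and 10.3%.

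Around the stop codon the called share of the members was highest just after it. In the 100 nt before it 13.6% (8.27 to 21.5) of DRACH adenosines were called in the cerebellum and 23.3% (16.2 to 32.3) in the cerebrum, and in the 100 nt after it 20.7% (14.3 to 28.9) and 27.6% (20.3 to 36.3). From 500 to 600 nt downstream it was 2.35% (0.648 to 8.18) and 10.6% (5.67 to 18.9). In the second 100 nt after the stop codon the members had 18.9% (12.6 to 27.4) and 26.4% (19 to 35.5), intervals that overlap those of the first. All coding genes had 7.41% and 12.5% in the first 100 nt and their highest values, 8.31% and 13.3%, in the second. Restricting both sets to genes with a DRACH site, the first 100 nt had 27.3% and 36.4% in members and 14.7% and 24.6% in coding genes. In the second the values were 23.3% and 32.6% in members and 15.6% and 25.1% in coding genes.

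**Figure D5:**
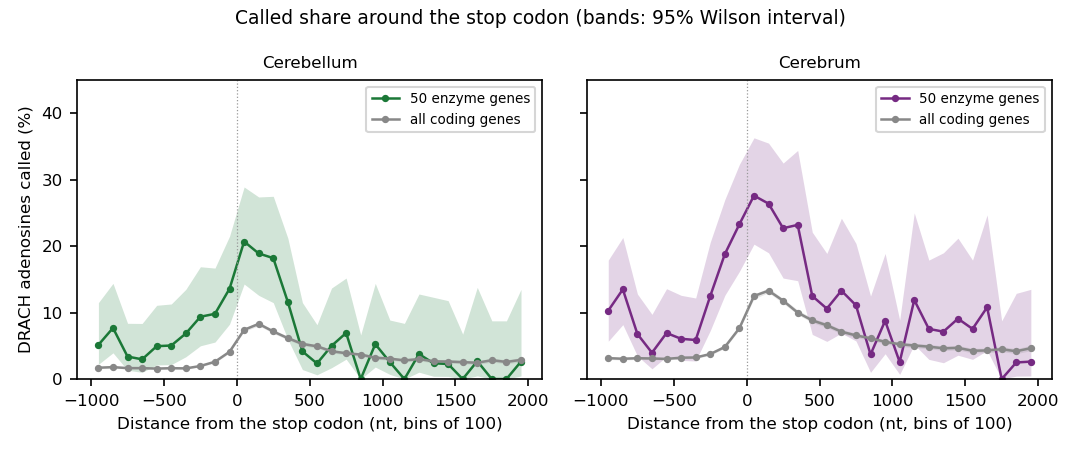
Share of DRACH adenosines that were called (%) in bins of 100 nt by distance from the stop codon, for the 50 enzyme genes (coloured) and all coding genes (grey), with bands for the 95% Wilson interval. The enzyme genes peak in the 100 nt after the stop codon at 20.7% in the cerebellum and 27.6% in the cerebrum.

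Nsd3 and Nsd2 showed sites on the ends of shorter isoforms. Of the 917 exonic DRACH sites of members 874 lay on the longest coding isoform and 43 on another, and 17 of these were in Nsd3 and 17 in Nsd2. In Nsd3 the last exon of a 10-exon isoform (chr8:25676703-25677972, 1270 nt) held 13 DRACH sites, 10 in the cerebellum, 9 in the cerebrum and 6 in both. The last exon of the 24-exon isoform (chr8:25714159-25719667, 5509 nt) held 7, 4 in the cerebellum, 5 in the cerebrum and 2 in both. In Nsd2 the last exon of the 23-exon isoform (chr5:33894906-33897966) held 12, with 7 and 10, and that of the 9-exon isoform (chr5:33871407-33877282) held 19, with 11 and 18. Isoform levels were not measured here.

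The DRACH 5-mers were called at unequal rates. In members GGACT was called at 18.2% (14.6 to 22.5) of its 362 occurrences in the cerebellum and 34.8% (30.1 to 39.9) in the cerebrum, GAACT at 18.4% and 28.5%, and AGACT at 17.6% and 24.4%. Among the least called, AAACC reached 1.07% and 0.800% of 375 occurrences, and TAACC reached 0 of 155 (up to 2.42%) and 1.29%. The order was similar over all coding genes, from 7.68% and 13.6% for GGACT to 0.153% and 0.331% for TAACC. Among genes with a DRACH site GGACT was called at 20.1% and 38.4% in members and at 12.6% and 22.3% in coding genes. In members, as in all genes, the motifs ending in T exceeded those ending in C with the same first bases.

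The cerebellum list of the members was largely contained in that of the cerebrum. Of 548 cerebellum DRACH sites 489 recurred in the cerebrum list (89.2%, 86.4 to 91.6), where they made up 54.8% (51.5 to 58.1) of 892. Over all coding genes the shares were 81.5% and 46.0%, and the cerebrum had 1.77 times as many DRACH sites as the cerebellum, against 1.63 times in the members. None of the 31 members with at least 5 DRACH sites had more in the cerebellum, against 5.07% of the 5342 coding genes with as many. The 59 DRACH sites listed in the cerebellum only were spread over 23 members, with the most in Kmt2c (9), Nsd3 (7) and Nsd1 (6).

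Of the 35 members with at least 4 DRACH sites in the cerebrum 7 had none in the cerebellum, against 7.76% of the 5719 coding genes with as many. They were Ezh2, Kmt5a, Prdm8, Prdm16, Setd4, Setd6 and Setd7, with 4 to 9 cerebrum sites each. Prdm8 had the most of these, with 9, and Prdm16 had 8. Since the cerebrum list was the longer, a small cerebrum count goes with a smaller one in the cerebellum for many genes, and the part of depth and of expression in these zeros was not tested.

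Outside DRACH the members had 168 cerebellum and 565 cerebrum sites, and far fewer of them recurred: 33.9% (27.2 to 41.4) of the cerebellum ones were in the cerebrum and 10.1% (7.87 to 12.8) the other way round. Over all coding genes these shares were 26.6% and 7.93%. The most frequent of their 5-mers was GTACT in the cerebellum (11 of 168) and GGATT in the cerebrum (17 of 565). Introns held 36 cerebellum (5.03%) and 186 cerebrum sites of members (12.8%), against 17.9% and 26.3% over all coding genes, and the DRACH share among them was 11.1% and 6.99%. Kmt2c and Kmt2e had 25 intronic sites each and Kdm4c, an H3K9 demethylase, 20, and in none of the 3 was an intronic site found in both tissues. Such sharing was rare in general. Counting both tissues together, 4 of 218 intronic sites of members and 1558 of 56499 of all coding genes were in both. One member site had no A in the reference sequence. It lay in exon 3 of Setd2 (chr9:110549045-110549065, plus strand), was listed in the cerebrum only, and has G at the called position. The authors also called sites on a PWK version of the genome, by which adenosines present only in PWK could be found. Whether this holds for the Setd2 site was not tested.
Setd2, exon 3, site without A: cacgatggCCGTGaaagtatt

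Partners of these enzymes outside the naming rule were counted too, to be read against the 35.7% and 46.0% of all coding genes with a DRACH site. Of 11 subunits of COMPASS, the complexes that carry the H3K4 methyltransferases, 7 had a DRACH site in the cerebellum and 10 in the cerebrum. Ncoa6, a subunit of the Kmt2c and Kmt2d complexes, had 32 and 50, and Wdr82, of the Setd1 complexes, had 13 and 16. Of 8 partners of the Ezh proteins in PRC2, 3 and 6 had one, the cerebellum count being close to that background share, led by Mtf2 (8 and 15) and Jarid2 (5 and 12). Of 13 histone lysine methyltransferases with other symbols, 7 and 11 had one, led by Ash1l (39 and 55), which methylates H3K36, and Ehmt1 (13 and 22), which methylates H3K9. Of 5 demethylases with other symbols 2 had one in each tissue, close to the background shares. These were Jmjd1c (15 and 35) and Phf2 (2 and 7). Of 4 X-linked genes of these families 3 and 4 had one, among them Kdm6a, an H3K27 demethylase, with 9 and 23, and Kdm5c, an H3K4 demethylase, with 7 and 12.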

How the data were processed

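The authors aligned the reads to the mm10 genome and to a PWK version of it, called m6A with GLORI-tools (v.1.0), merged the calls of both genomes, and required a rate over 0.1 with more than 8 reads. The deposited lists give chromosome, position and strand, and the depth is unknown. The filters mean that an unlisted adenosine may be unmethylated, unexpressed or thinly read. Each tissue had 1 library.

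Bases were read from GRCm38, the assembly mm10 names. Gene models were GENCODE M21, whereas the paper names another release. A site was a member's when it lay in its gene interval on the same strand, and its region was that on the longest covering coding isoform whose coding sequence is complete and flanked by UTRs. The called share counts called DRACH adenosines among all those of the longest such isoform. Shares have 95% Wilson intervals, and no test was run. The members, gene lists and naming rule were chosen with earlier results of these data known. Named were the 3 members of each family with the most DRACH sites (all Nsd and Ezh genes), the 3 with the highest and the lowest called share, those without a site, and the 2 highest of each list outside the rule. Other genes, the 100-nt windows and the isoform ends were chosen after their values were seen. Values of some genes that these rules name are not reported here. The code for coding bounds, positions, exon class and junction distance was checked on a simulated gene and planted sites. The comparisons between gene sets or tissues were not simulated. Python 3.11.15, pysam 0.24.0 and matplotlib 3.10.9 were used.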

Additional observations from a re-analysis of the deposited data

How the results depend on the processing

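Of 108 values under alternative settings 85 stayed within the 95% interval of the value reported (for counts of genes, within 1.5 times) and 23 moved out of it. In the same order, cerebellum then cerebrum, the APPRIS principal isoform gave 18.7% and 22.3% of exonic DRACH sites in the 3′ UTR, 63.9% and 60.1% in long internal exons, and called shares of 0.645% and 1.29% in first exons. The motif RRACH held 64.7% and 52.1% of member sites, and DRACH held 82.0% and 72.3% of those on exons of coding isoforms. A window of 400 nt around the stop codon held 23.8% and 21%. Long internal exons defined from 1000 nt held 42.0% and 39.7%, and from 200 nt 55.5% in the cerebrum. With all sites in place of DRACH sites the long exon share in the cerebrum was 44.9%, and the shared portions were 76.3% and 37.5%. The called share of last exons was 11.2% and 17.8% in members with at least 5 DRACH sites, and 9.12% and 15.1% in members with at least 1, a setting added after the data were seen. That of the Prdm genes in the cerebrum was 9.20% in those with a site. Leaving out Nsd1, the Prdm family or sites inside another gene, done for the motif, region and overlap shares, moved none of them out of its interval. No paired analysis was possible because each tissue had 1 library and no test was made. Without rates and depths, no difference in methylation level between the tissues or genes could be measured.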
